A study of Mus musculus with 24 samples.

Results

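The change of microRNA (miRNA) levels with time after spinal cord injury was measured in the adult sensorimotor cortex, as the difference between injured (SCI) mice 3 days and 12 h after the lesion. The members were the 6 SCI libraries of postnatal day 90 (P90) mice, 3 at each time point, of 24 small RNA libraries in all. They were taken by their labels of age, injury and time, with no use of measured values. C57BL/6J male mice had the spinal cord completely transected (at C5/6 in the labels, at C6 in the study's methods), the sensorimotor cortex was dissected, and each library came from a separate sample. The methods describe both the isolation of the entire sensorimotor cortex and that of layer V from coronal sections, so which was sequenced is not settled here. The controls (SHAM, called wild type or control in the labels) had the cord exposed without damage, and 3 libraries at each time point gave the same contrast without injury. The cortex lies far from the lesion and was not itself cut. Its layer V holds the corticospinal neurons whose axons run down the cord. The samples carry separate numbers within a group, and p-values measure only the spread between these samples. Reads 18 nt or longer fell on 1692 miRNA arms, of which 731 had a mean normalised count of at least 5 in the 6 SCI libraries and were tested.

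miRNAs are cut from hairpin precursors, whose 5p and 3p arms can both give a mature miRNA. The mature strand guides a silencing complex to mRNAs, mainly through its seed, bases 2 to 8 from the 5′ end. miRNAs that share a seed form a family with overlapping targets. The let-7 family is the best known of these: it is scarce in stem cells and abundant in mature neurons, its precursors are held back by the RNA-binding protein LIN28, and in worms it limits the regrowth of cut axons. The DLK1-DIO3 cluster on mouse chromosome 12 is a large imprinted group of miRNAs expressed mainly in brain.

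The let-7 5p arms are shown because they gave the largest group of miRNAs that moved together. Capitals mark the seed, which is GAGGUAG in all 9 arms tested. The sequences are the RefSeq mature miRNAs (GRCm38.p6), and each was also the most abundant deposited read of its arm.
let-7a-5p: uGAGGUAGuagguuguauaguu
let-7b-5p: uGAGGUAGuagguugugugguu
let-7c-5p: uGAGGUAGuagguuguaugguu
let-7d-5p: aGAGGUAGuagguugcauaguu
let-7e-5p: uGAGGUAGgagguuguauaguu
let-7f-5p: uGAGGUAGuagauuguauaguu
let-7g-5p: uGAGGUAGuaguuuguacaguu
let-7i-5p: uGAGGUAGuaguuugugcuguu
miR-98-5p: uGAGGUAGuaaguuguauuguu

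Counted from 1 at the 5′ end, with let-7a-5p as the reference, let-7c-5p differs by A19G, let-7e-5p by U9G and let-7f-5p by G12A. The most distant member, let-7i-5p, differs by 4 bases (G12U, A17G, U18C and A19U). Only whole reads without mismatch were counted. Short reads that end before such a base match more than 1 member, and of the 9 arms only let-7c-5p was given such shared reads, 55242 over the 24 libraries. let-7a, let-7c and let-7f each come from 2 hairpins that give the same 5p arm. One hairpin each of let-7a, let-7f and let-7d lies on chromosome 13 within exons of the lincRNA 6720427I07Rik, with the let-7d-5p arm at chr13:48536078-48536099, the let-7f-5p arm at chr13:48537889-48537910 and the let-7a-5p arm at chr13:48538239-48538260 (GRCm38, minus strand). let-7g lies in an intron of Wdr82 (chr9:106178846-106178867, plus strand) and miR-98 in an intron of Huwe1 (chrX:151913229-151913250, plus strand).

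The next sequences are of the 10 miRNAs named for the largest or the most certain changes, those that rose first. Capitals again mark bases 2 to 8. RefSeq mature sequences are shown for 6 of them. miR-3470a-3p, miR-3470b-3p, miR-1954-3p and miR-383-5p are shown as the most abundant deposited read of the arm.
miR-3470a-3p: gCCUGCCUcugccuccuga
miR-3470b-3p: aCCUGCCUcugccucccga
miR-1954-3p: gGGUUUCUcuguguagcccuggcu
miR-342-5p: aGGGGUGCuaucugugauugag
miR-383-5p: aGAUCAGAaggugacuguggcu
let-7f-2-3p: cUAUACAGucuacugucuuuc
miR-503-5p: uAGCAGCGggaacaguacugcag
miR-188-3p: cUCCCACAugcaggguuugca
miR-154-3p: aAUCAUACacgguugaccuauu
miR-495-3p: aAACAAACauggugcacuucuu

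Apart from miR-3470a-3p and miR-3470b-3p, which share a seed, none of these 10 shares its seed with another tested miRNA.

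The 6 SCI libraries held 11618070 to 20516265 reads, of which 70.1% to 74.9% matched miRNA arms. A floor of 3 reads in a library is 0.146 to 0.258 CPM of all reads and covers counting error only. Markers of neurons were abundant. The 9 neuronal miRNA arms, among them miR-124-3p, miR-128-3p and miR-9-5p, held 25.3% to 26.3% of the miRNA reads in every SCI library, most of them from miR-9 and miR-128-3p. One library stood apart, SCI 12 h replicate 1, by miRNAs of the choroid plexus, described with its values below. Time point and library preparation cannot be told apart in the SCI libraries, and fewer cells of a type cannot be told apart from less RNA per cell in such bulk tissue.

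Most miRNAs differed little between the time points, and few passed the limits of the study. Differential expression (DE) required more than 1 unit of log2 change, up or down, together with an edgeR quasi-likelihood p under 0.05 after Benjamini-Hochberg adjustment. Of 731 miRNAs, 7 were DE (0.958%), 4 higher at 3 days (0.547%) and 3 lower (0.41%). Without the limit on size 32 passed (4.38%), 20 higher (2.74%) and 12 lower (1.64%). The 3-day and 12-h libraries did not overlap for 112 miRNAs higher at 3 days (15.3%) and for 112 lower (15.3%). The median log2 change of all 731 was -0.01. In SHAM mice the same contrast gave 1 DE miRNA of 805 (0.124%), miR-3470a-3p. DESeq2 in place of edgeR called 9 in SCI mice and 9 in SHAM mice. An unadjusted edgeR p under 0.05 was found for 170 of 731 miRNAs in SCI mice and for 113 of 805 in SHAM mice. The SHAM time points did not overlap for 56 miRNAs higher at 3 days (6.96%) and 82 lower (10.2%), and 6.83% were lower with an unadjusted p under 0.05.

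**Figure D1:**
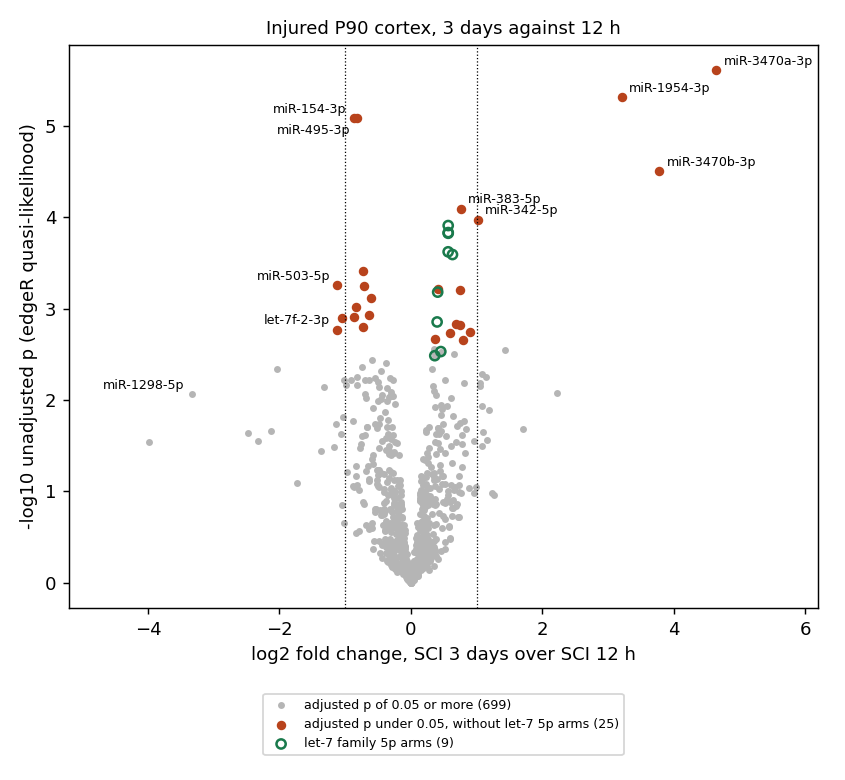
Each point is 1 of 731 miRNAs, by its log2 fold change from 12 h to 3 days in SCI cortex (x axis) and -log10 of its unadjusted p by edgeR's quasi-likelihood test (y axis). The 9 let-7 family 5p arms (green circles, 7 of them with an adjusted p under 0.05) lie together between 0.36 and 0.63, inside the dotted lines at -1 and 1, and 3 miRNAs lie far to the right, at 3.21 to 4.65.

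The let-7 family rose between 12 h and 3 days after injury. All 9 tested 5p arms were higher in each of the 3-day libraries than in any 12-h library, against 15.3% of all miRNAs. Of the 9, 7 passed an adjusted p of 0.05, against 2.74% of all miRNAs, and none reached a log2 change of 1. Their log2 changes were between 0.36 and 0.63 with a median of 0.57. let-7j-5p and let-7k-5p were too scarce to test.

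The family took 6.90% to 7.27% of the miRNA reads in the 12-h libraries and 9.58% to 10.6% in the 3-day libraries. The normalised count of let-7g-5p, the most abundant member, was 219726, 237142 and 233010 at 12 h, and 321215, 306079 and 288217 at 3 days. The lowest of the 3-day libraries thus stood well above the highest 12-h library. let-7g-5p rose by 0.41 on the log2 scale (SE 0.08, edgeR adjusted p = 0.0269, n = 3 in each group).

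let-7f-5p had normalised counts of 191635, 175024 and 164975 at 12 h, and of 281335, 253890 and 253279 at 3 days. The 2 sets of libraries were again apart, with replicate 1 the highest of each. let-7f-5p rose by 0.57 (log2, SE 0.09, edgeR adjusted p = 0.0110). let-7d-5p gave 50300, 42371 and 48516 at 12 h and 82089, 70538 and 66408 at 3 days, the largest rise of the family, 0.63 (log2, SE 0.11, edgeR adjusted p = 0.0156).

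let-7a-5p, let-7c-5p and let-7e-5p rose by nearly the same amount, with log2 changes of 0.57, 0.57 and 0.57 and edgeR adjusted p-values of 0.0156, 0.0110 and 0.0110. miR-98-5p, which carries the let-7 seed under another name, rose by 0.40 (SE 0.09, edgeR adjusted p = 0.0425). let-7b-5p and let-7i-5p had log2 changes of 0.46 and 0.36 and did not pass (edgeR adjusted p = 0.0610 and 0.0630). The hairpins of these members lie on several chromosomes.

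**Figure D2:**
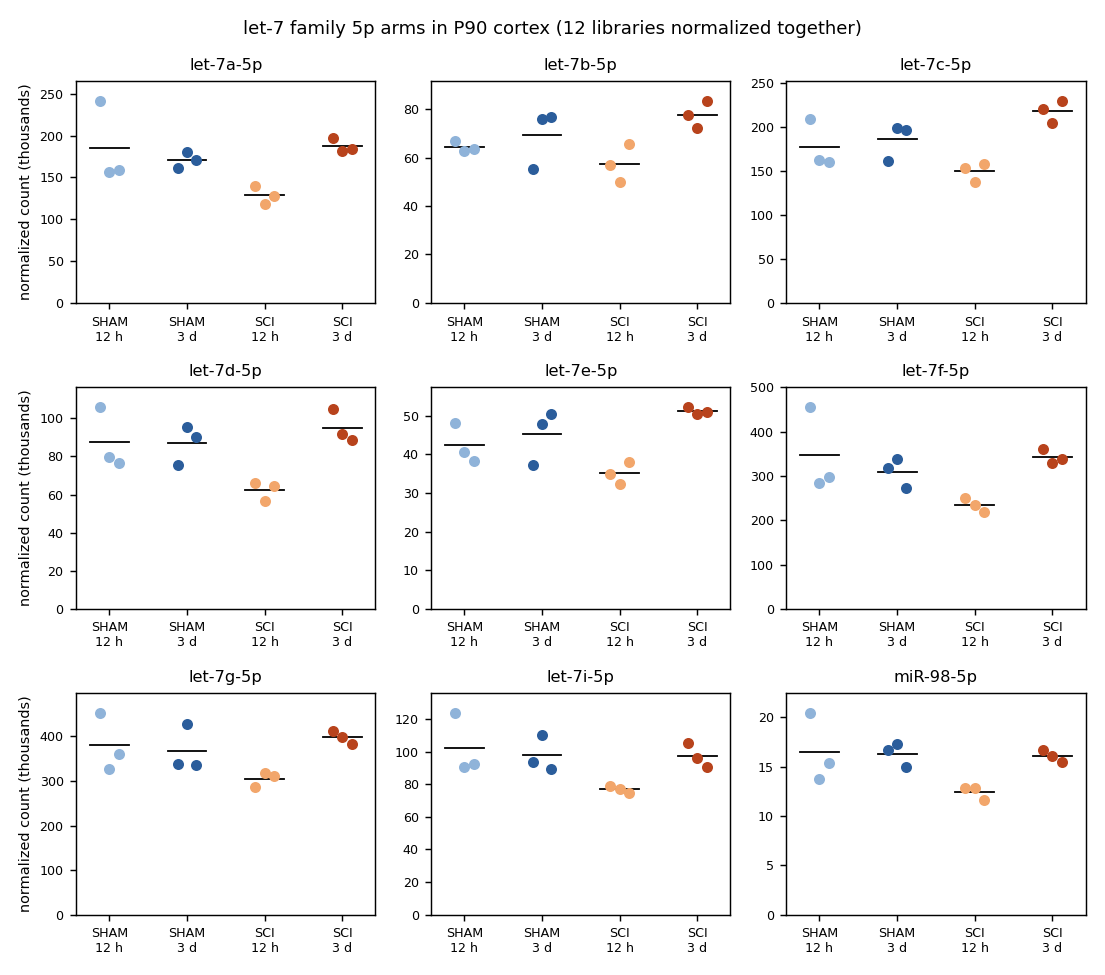
Normalised counts of the 9 let-7 family 5p arms in the 12 P90 libraries, normalised together, with 1 point for each library and a line at each group mean (n = 3). SCI 12 h has the lowest mean of the 4 groups in each panel, and for let-7f-5p their mean is 235060 against 309150 to 346295 in the other groups.

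In SHAM mice the 9 arms had log2 changes from 12 h to 3 days between -0.14 and 0.12, with a median of 0.00, and none had an unadjusted p under 0.05. SHAM 12 h replicate 1 stood high, with 10.48% of its miRNA reads from the family, against 8.08% and 8.58% in replicates 2 and 3. The SHAM 3-day libraries had 8.71% or more, above replicates 2 and 3 at 12 h and below replicate 1. For let-7f-5p alone, SHAM 3 days replicate 3 (normalised count 339268) was below all SHAM 12-h libraries (349190 or more). How far the SHAM changes rest on replicate 1 is not settled here. The difference between the SCI and SHAM changes was between 0.32 and 0.71 for the 9 arms. It had an unadjusted p under 0.05 for 7 of the 9, against 3.91% of the 767 miRNAs tested for that difference in the same direction and 8.6% in either. None passed after adjustment over all miRNAs (edgeR adjusted p between 0.342 and 0.724), so the time course of let-7 is not shown to differ between SCI and SHAM.

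On the common scale of the 12 P90 libraries the mean of let-7f-5p was 235060 ± 15535 (SD, n = 3) at SCI 12 h, 309150 ± 32932 at SHAM 3 days, 342637 ± 15545 at SCI 3 days and 346295 ± 94776 at SHAM 12 h. SCI 12 h lay below all 9 other libraries, and the 3 upper groups overlapped one another. The SCI 12-h libraries were below every SHAM 12-h library for 8 of the 9 arms, all but let-7b-5p, against 9.52% of 767 miRNAs. They were below all 9 other P90 libraries for 7 of the 9 arms, against 3.52%. Those 9 include the 3 SCI 3-day libraries, already found above SCI 12 h for all 9 arms. This count thus reuses the SCI contrast in part, and its share over all miRNAs is no like-for-like background. At 3 days the SCI and SHAM libraries overlapped for 6 of the 9, and let-7a-5p, let-7c-5p and let-7e-5p were higher in every SCI library, as were 12.4% of the 767 miRNAs.

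The length of the let-7 reads shifted as well. The share of 22-nt reads within an arm was lower in each 3-day SCI library than in any 12-h library for 7 of the 9 arms. Over the 241 miRNAs with a mean normalised count of at least 1000 the same held for 25.3%, and 11.6% were higher. let-7b-5p moved the furthest: its 22-nt reads were 43.8%, 43.5% and 43.5% of its reads at 12 h and 38.6%, 38.8% and 39.1% at 3 days. In SHAM mice let-7b-5p stayed between 42.4% and 44.8% in all 6 libraries, and none of the 9 arms was lower at 3 days without overlap, against 9.96% of the 241 miRNAs, while 3 were higher, against 20.3%.

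The 3p arms of the let-7 hairpins, a list drawn up after the 5p arms had been seen, gave no rise. Of 11 tested, 2 fell, against 1.64% of all miRNAs, and 9 did not pass, with a median log2 change of -0.18. let-7i-3p fell from 1450, 993 and 1170 to 804, 699.9 and 682 (log2 change -0.72, SE 0.16, edgeR adjusted p = 0.0431) while let-7i-5p, from the same hairpin, was higher. In SHAM mice let-7i-3p had a log2 change of -0.77 (edgeR adjusted p = 0.185). The log2 ratio of 5p to 3p reads was higher at 3 days for all 9 pairs formed, by 0.42 to 1.66, and the SCI libraries of the 2 time points did not overlap for 8 of the 9. These 5p arms had already been seen to rise, so the ratios are no separate support for that rise. The largest, 1.66, sets let-7f-5p, which comes from 2 hairpins, against the 3p arm of let-7f-2 alone. Of the 290 pairs of tested 5p and 3p arms that share a hairpin, 54.8% had a higher mean ratio at 3 days and 24.8% did so without overlap. In SHAM mice the ratio was higher for 8 of the 9, by at most 0.76, and 2 pairs did not overlap, against 58.6% and 14.1% of all pairs.

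The let-7 calls depended on which libraries were fitted. Without SCI 3 days replicate 1 none of the 9 arms passed (edgeR adjusted p 0.0573 to 0.202, log2 changes 0.27 to 0.54), whereas leaving out any other library kept 5 to 9 calls. Fitted with all 12 P90 libraries 3 arms passed, and with all 24 libraries of the series none did, at log2 changes of 0.33 to 0.60.

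The largest rises were of 3 scarce miRNAs, miR-3470a-3p, miR-3470b-3p and miR-1954-3p. miR-3470a-3p had normalised counts of 4.69, 6.43 and 0.917 at 12 h and of 83.8, 122 and 88.9 at 3 days, a log2 change of 4.65 (SE 0.42, edgeR adjusted p = 0.00150). miR-3470b-3p had 12.2, 34.7 and 5.50 at 12 h and 232, 254 and 197 at 3 days, a log2 change of 3.78 (SE 0.47, edgeR adjusted p = 0.00462). Every 3-day library was many times higher than every 12-h library for both. miR-1954-3p rose from 7.5, 9.0 and 8.25 to 69.6, 106 and 56.0, a log2 change of 3.21 (SE 0.32, edgeR adjusted p = 0.00150). The 12-h values rest on few reads: 5, 5 and 1 for miR-3470a-3p, 13, 27 and 6 for miR-3470b-3p, and 8, 7 and 9 for miR-1954-3p. The single read of miR-3470a-3p is below the floor of 3 reads. miR-1954-3p joins the arms of 2 hairpins, Mir1954 and Mir5098.

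These 3 arms were also higher at 3 days without injury, and 1 of them passed. In SHAM mice miR-3470a-3p had a log2 change of 4.06 (edgeR adjusted p = 0.0167), miR-3470b-3p one of 4.18 (edgeR adjusted p = 0.0644) and miR-1954-3p one of 2.03 (edgeR adjusted p = 0.164), with no overlap of the time points. Their sequences are not particular to the hairpins. The most abundant read of miR-3470a-3p (19 nt) also occurs on the sense strand of 132 other annotated transcripts and on the antisense strand of 108, that of miR-3470b-3p in 96 and 73, and that of miR-1954-3p (24 nt) in 523 and 553. Reads of such repeated sequence cannot be placed at 1 locus. The miR-3470 reads are shorter than most miRNAs, and with reads of 21 to 23 nt alone neither miR-3470 arm passed the count minimum.

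miR-342-5p and miR-383-5p were the other rises named, and neither has such copies. miR-342 lies in an intron of Evl (miR-342-5p at chr12:108658638-108658659, plus strand). Its 5p arm had 265, 314 and 341 normalised counts at 12 h and 699, 592 and 572 at 3 days, with no overlap. The log2 change was 1.02 (SE 0.15, edgeR adjusted p = 0.0110). In SHAM mice it was 0.52 (SE 0.19, edgeR adjusted p = 0.287). The 3p arm of the same hairpin, a leukocyte-enriched miRNA, had a log2 change of -0.49 and overlapping groups (edgeR adjusted p = 0.287).

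miR-383-5p, from an intron of Sgcz on chromosome 8 (chr8:38252178-38252199, minus strand), gave 3723, 3572 and 3854 at 12 h and 7108, 6097 and 5615 at 3 days. The 12-h libraries were close together and far below the 3-day libraries. It passed the adjusted p but not the limit on size (log2 change 0.76, SE 0.11, edgeR adjusted p = 0.00983). In SHAM mice the log2 change was 0.16 (SE 0.18, edgeR adjusted p = 0.723), and the difference between the changes, 0.59, did not pass after adjustment (edgeR adjusted p = 0.433).

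**Figure D3:**
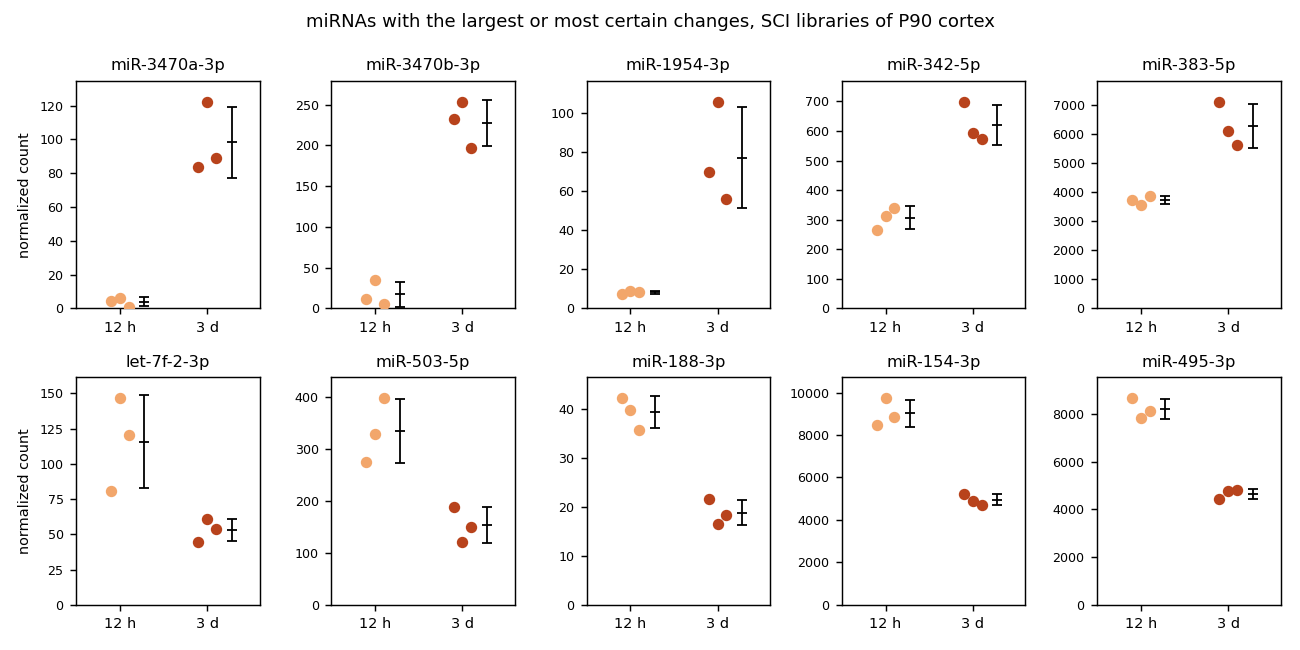
Normalised counts in the 6 SCI libraries of the 5 miRNAs named for a rise (upper row) and the 5 named for a fall (lower row), with 1 point for each library and the mean ± SD beside each group (n = 3). The groups are apart in each panel, and the fall of miR-154-3p, from 9025 to 4944 on average, is smaller than 2-fold although its libraries are close together.

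Among the falls, miR-503-5p, a member of the extended miR-16 family that restrains the cell cycle, went from 276, 330 and 399 normalised counts to 189, 121 and 151. No 3-day library reached a 12-h library. The log2 change was -1.12 (SE 0.21, edgeR adjusted p = 0.0269), against -0.02 (SE 0.25, edgeR adjusted p = 0.995) in SHAM mice. The difference of -1.11 between them did not pass after adjustment (edgeR adjusted p = 0.342). miR-188-3p, from an intron of Clcn5, fell from 42.2, 39.9 and 35.8 to 21.7, 16.5 and 18.3 (log2 change -1.04, SE 0.22, edgeR adjusted p = 0.0401), and had a log2 change of -0.88 in SHAM mice (edgeR adjusted p = 0.202). It rests on 15 to 45 reads in each library, and the call was lost in 6 of 14 other settings, DESeq2 among them (highest adjusted p over all 14 settings 0.261). let-7f-2-3p, the passenger arm of a let-7f hairpin in an intron of Huwe1, fell from 80.7, 147 and 120 to 44.9, 60.6 and 53.6 (log2 change -1.13, SE 0.25, edgeR adjusted p = 0.0443). In SHAM mice its log2 change was -0.62 (edgeR adjusted p = 0.446), and the difference of -0.51 did not pass (edgeR adjusted p = 0.851). The let-7f-2-3p call was lost in 3 of 14 other settings (highest adjusted p over all 14 settings 0.144).

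The falls with the smallest p-values were of miR-154-3p and miR-495-3p, both of the DLK1-DIO3 cluster and both under 2-fold. miR-154-3p (chr12:109738474-109738495, plus strand, in an intron of the lincRNA Mirg) had 8483, 9738 and 8853 at 12 h and 5228, 4893 and 4713 at 3 days. The spread within each time point was small beside the gap. It fell by 0.87 on the log2 scale (SE 0.09, edgeR adjusted p = 0.00150). miR-495-3p (chr12:109718795-109718816, plus strand), a brain miRNA that targets Bdnf, had 8672, 7855 and 8113 at 12 h and 4428, 4763 and 4806 at 3 days. It fell by 0.82 (SE 0.09, edgeR adjusted p = 0.00150). In SHAM mice the log2 changes were -0.25 and -0.46 (edgeR adjusted p = 0.509 and 0.202).

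Of 96 tested arms from the hairpins of the cluster, 6 passed, 5 lower and 1 higher, where 1.64% of all miRNAs were lower and 2.74% higher. The median log2 change was 0.00, close to that of all miRNAs. The other falls were of miR-329-3p (-0.83), miR-376b-3p (-0.87) and miR-337-3p (-0.64), and the rise was of miR-770-3p (0.79), from an exon of the lincRNA Meg3, a call lost in 5 of 14 other settings (highest adjusted p over all 14 settings 0.357). Their edgeR adjusted p-values were 0.0347, 0.0401, 0.0401 and 0.0499. In SHAM mice these 4 had log2 changes in the same direction and of similar size, -0.89, -0.69, -0.77 and 0.62, with edgeR adjusted p-values between 0.164 and 0.295.

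The miR-29 and miR-7 families gave 1 call each. miR-29c-3p, of a family that rises as neurons mature and represses pro-apoptotic and collagen genes, had 216314, 265488 and 280749 at 12 h and 164231, 185362 and 151458 at 3 days. It fell by 0.61 (SE 0.12, edgeR adjusted p = 0.0296), and in SHAM mice it had almost the same log2 change, -0.57 (edgeR adjusted p = 0.248). miR-29a-3p, the most abundant miRNA of all, shares its seed and had a log2 change of -0.30 without overlap of the groups (edgeR adjusted p = 0.0883), and miR-29b-3p one of -0.23 (edgeR adjusted p = 0.472). For the miR-29 family 1 of 3 fell, against 1.64% of all miRNAs, and 2 did not pass.

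miR-7a-5p, abundant in brain and bound by the circular RNA Cdr1as, rose from 21834, 20228 and 15218 to 32256, 33419 and 26162. All 3-day libraries were above all 12-h libraries. The log2 change was 0.68 (SE 0.15, edgeR adjusted p = 0.0425), and 0.93 in SHAM mice (SE 0.26, edgeR adjusted p = 0.202). Of the other 4 miR-7 arms tested none passed, so 1 of 5 rose, against 2.74% of all miRNAs. miR-7b-3p, the passenger arm on which the study centred, had 475, 382 and 567 at 12 h and 675, 529 and 615 at 3 days, with overlapping groups (log2 change 0.35, SE 0.17, edgeR adjusted p = 0.265). The activity-regulated arms (miR-132, miR-212, miR-134 and miR-485) gave no call in 6, with a median log2 change of 0.10. None of the 5 miR-30 arms (median -0.16) or of the 13 arms of the proliferation-linked miR-17~92 group (median -0.11) passed.

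None of the 5 most abundant miRNAs passed. Besides miR-29a-3p, which took 10.4% of the normalised miRNA counts, they were miR-9-5p (8.10%), miR-128-3p (7.99%), miR-26a-5p (7.81%) and miR-9-3p (5.75%), all typical of brain. Their log2 changes were 0.05, -0.02, 0.13 and 0.10, with edgeR adjusted p-values between 0.311 and 0.918.

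miRNAs of immune cells and of inflammation did not pass. Of 7 microglial and leukocyte arms none was called (median log2 change -0.20), nor was any of 7 inflammation-responsive arms (median -0.00). miR-155-5p, induced in activated macrophages, had 149, 131 and 126 at 12 h and 209.5, 162 and 220.4 at 3 days, apart in each library (log2 change 0.54, SE 0.17, edgeR adjusted p = 0.10). miR-146a-5p and miR-21a-5p had log2 changes of -0.00 and -0.03 (edgeR adjusted p = 0.998 and 0.818). Of 4 erythrocyte arms 1 fell, against 1.64% of all miRNAs. It was miR-451a-5p, the most abundant miRNA of red blood cells, which went from 2849, 2681 and 2340 to 1426, 1814 and 1508 (log2 change -0.73, SE 0.13, edgeR adjusted p = 0.0220). In SHAM mice its log2 change was -0.49 (edgeR adjusted p = 0.295). The summed erythrocyte arms took 0.0470% to 0.0550% of miRNA reads at 12 h and 0.0359% to 0.0419% at 3 days in the SCI libraries, and their part in other results was not tested. No call was made among 9 neuronal, 4 oligodendrocyte, 2 endothelial, 3 mural, 3 skeletal muscle, 5 epithelial, 2 Hox-cluster or 3 miR-183 cluster arms. Of the neuronal arms 3 were lower at 3 days without overlap, against 15.3% of all miRNAs. They were miR-124-3p (log2 change -0.82, edgeR adjusted p = 0.0809), miR-124-5p (-0.35, 0.141) and miR-137-3p (-0.26, 0.176). The median log2 changes of these lists, in the same order, were -0.09, 0.07, -0.14, -0.27, 0.05, -0.30, -0.35 and -0.79.

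miRNAs of the choroid plexus, several of them from introns of Htr2c, stood high in 1 library. miR-1298-5p had 4215, 284 and 325 normalised counts at 12 h and 168, 139 and 170.4 at 3 days. SCI 12 h replicate 1 was 13.8 times the mean of the other 12-h libraries. It was the highest of the 6 for 12 of the 13 choroid plexus arms, and the 13 together took 0.331% of its miRNA reads, against 0.0874% to 0.0997% in the other 5 SCI libraries. Of the SHAM libraries, replicates 1 and 3 at 3 days were also high, at 0.193% and 0.222%. The median log2 change of the 13 arms was -0.82. Over the 12 arms that could also be tested without this library the median was -0.64 with it and 0.03 without it. miR-1912-3p, with a log2 change of -3.98, is the arm that could not. None of the 13 passed with the library (lowest edgeR adjusted p 0.0883). Without it miR-1298-5p passed, with a log2 change of -0.94 (edgeR adjusted p = 0.00937). The let-7 arms took 7.27% of the miRNA reads of this library and 6.90% and 7.25% in the other 12-h libraries, and all 25 named miRNAs that passed also passed without it.

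Of the other miRNAs that the study names, miR-6481-3p (log2 change 0.67), miR-5126-3p (0.05), miR-26a-1-3p (-0.43), miR-668-3p (-0.03) and miR-551b-5p (-0.27) did not pass, with edgeR adjusted p-values between 0.289 and 0.951. Of these 5, only miR-551b-5p had groups that did not overlap, lower at 3 days, as were 15.3% of all miRNAs.

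The change with time differed between SCI and SHAM for 1 miRNA of 767 (0.13%), miR-671-5p. This miRNA lies in an exon of Chpf2 and directs the cleavage of Cdr1as. On the scale of the 12 libraries its lowest, median and highest counts were 1394, 1469 and 1557 at SCI 12 h and 947, 955 and 1192 at SCI 3 days. In SHAM mice they were 1544, 1548 and 1611 at 12 h and 2376, 2553 and 2831 at 3 days. It was thus lower at 3 days in every SCI library and higher in every SHAM library. The log2 change was -0.49 in SCI mice (SE 0.14, edgeR adjusted p = 0.0820) and 0.74 in SHAM mice (SE 0.14, edgeR adjusted p = 0.119). Neither passed alone, and the difference of -1.24 did (SE 0.18, edgeR adjusted p = 0.00772). It passed in all 12 fits that left out 1 library, and did not with reads of 21 to 23 nt alone or with all 24 libraries in one fit.

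**Figure D4:**
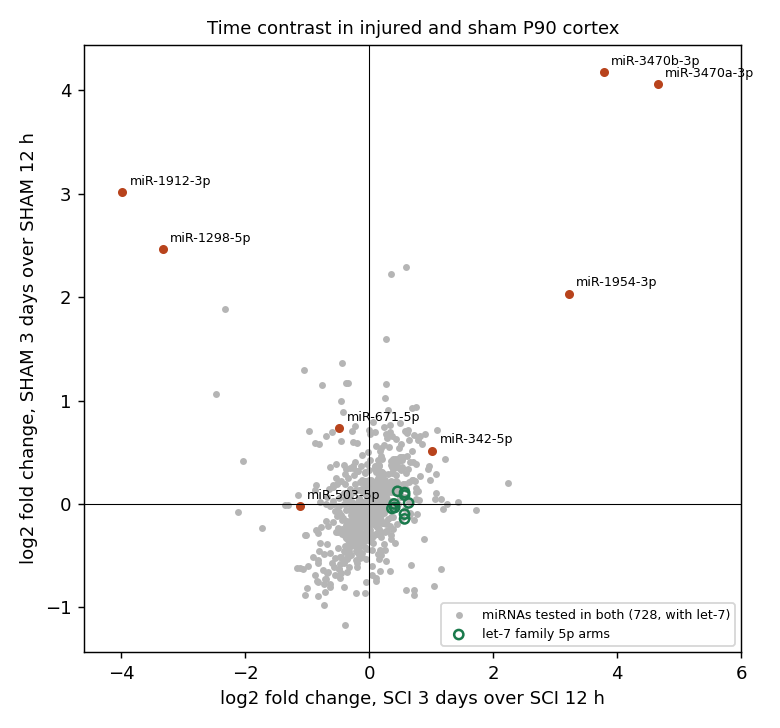
log2 fold changes from 12 h to 3 days in SCI (x axis) and SHAM (y axis) cortex of the 728 miRNAs tested in both, each point 1 miRNA, with let-7 5p arms as green circles and 8 named miRNAs in red. The let-7 arms lie right of 0 on the x axis and near 0 on the y axis (-0.14 to 0.12), miR-3470a-3p, miR-3470b-3p and miR-1954-3p are high on both axes, and miR-671-5p lies at -0.49 and 0.74.

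Over the 728 miRNAs tested in both, the SCI and SHAM changes had a Spearman rho of 0.39 across miRNAs, with no library in common. The points share their libraries within each contrast and are not independent, so this is a description.

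The composition of the libraries moved with time, in part in opposite directions in SCI and SHAM mice. The mean length of reads matching miRNAs was 21.70 ± 0.01 nt (SD, n = 3) at SCI 12 h and 21.69 ± 0.01 nt at 3 days, with overlap (exact permutation p = 0.80). Their GC content was 42.6% ± 0.18 and 42.4% ± 0.07 (exact permutation p = 0.30). The share of reads matching miRNA arms was 71.6% ± 2.20 and 74.5% ± 0.42 (exact permutation p = 0.20). The SCI libraries of the 2 time points overlapped in each of these measures. In SHAM mice the share was lower at 3 days without overlap (75.8% to 77.7% and 72.1% to 74.9%). The SHAM read length was higher at 3 days without overlap (21.69 to 21.70 nt and 21.72 to 21.75 nt), and the SHAM GC content overlapped.

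Of the fragments of other RNAs, those of rRNA and snRNA shifted without overlap in SCI mice. Those of snoRNA, mitochondrial tRNA and mitochondrial rRNA overlapped between the SCI time points (exact permutation p = 0.50, 0.50 and 0.30). Reads of rRNA took 0.218% to 0.314% of all reads at SCI 12 h and 0.377% to 0.749% at 3 days, with overlap in SHAM mice (0.0902% to 0.310% and 0.242% to 1.15%). Reads of snRNA took 0.196% to 0.329% at SCI 12 h and 0.116% to 0.144% at 3 days, and were lower at 3 days in SHAM mice too (0.323% to 0.407% and 0.179% to 0.274%). The part of these shifts in the miRNA changes was not tested.

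Reads of 22 nt were 40.8% to 41.3% of the miRNA reads at SCI 12 h and 41.5% to 41.8% at 3 days. This rise was opposite to the fall of the 22-nt share within 7 of the 9 let-7 arms. In SHAM mice the 22-nt reads overlapped (40.4% to 41.4% and 41.2% to 43.0%). Reads of 21 nt were 29.4% to 30.3% of the miRNA reads at SCI 12 h and 28.7% to 28.8% at 3 days, and 29.5% to 30.5% and 27.4% to 28.7% in SHAM mice. Over all reads of at least 18 nt, the mean length went from 22.3 to 22.7 nt at SCI 12 h down to 22.1 to 22.3 nt at 3 days, and the GC content from 44.0% to 44.5% down to 43.5% to 43.6%. In SHAM mice length and GC of all reads were higher at 3 days. Each of these differences in 21-nt share, length and GC was without overlap, for which an exact two-sided permutation test of 3 against 3 libraries gives p = 0.10, the smallest it allows.

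Across the 731 miRNAs the log2 change rose weakly with GC content (Spearman rho 0.15) and hardly with length (rho -0.03), and in SHAM mice with rho 0.27 and 0.06. The median log2 change in SCI mice was -0.14 for the 141 miRNAs under 40% GC and 0.07 for the 212 with at least 55% GC. For the 378 miRNAs between these limits it was -0.00. The let-7 arms hold 31.8% to 45.5% GC, and in a fit with a correction for GC their log2 changes were 0.42 to 0.70. The 10 miRNAs named for the largest or the most certain changes are given here by the GC content of their most abundant read. Those that fell were miR-154-3p and miR-495-3p (36.4%), let-7f-2-3p (38.1%), miR-503-5p (56.5%) and miR-188-3p (60%). Those that rose were miR-342-5p and miR-383-5p (50%), miR-1954-3p (58.3%), and miR-3470a-3p and miR-3470b-3p (68.4%). The part of GC content in these changes was not tested.

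**Figure D5:**
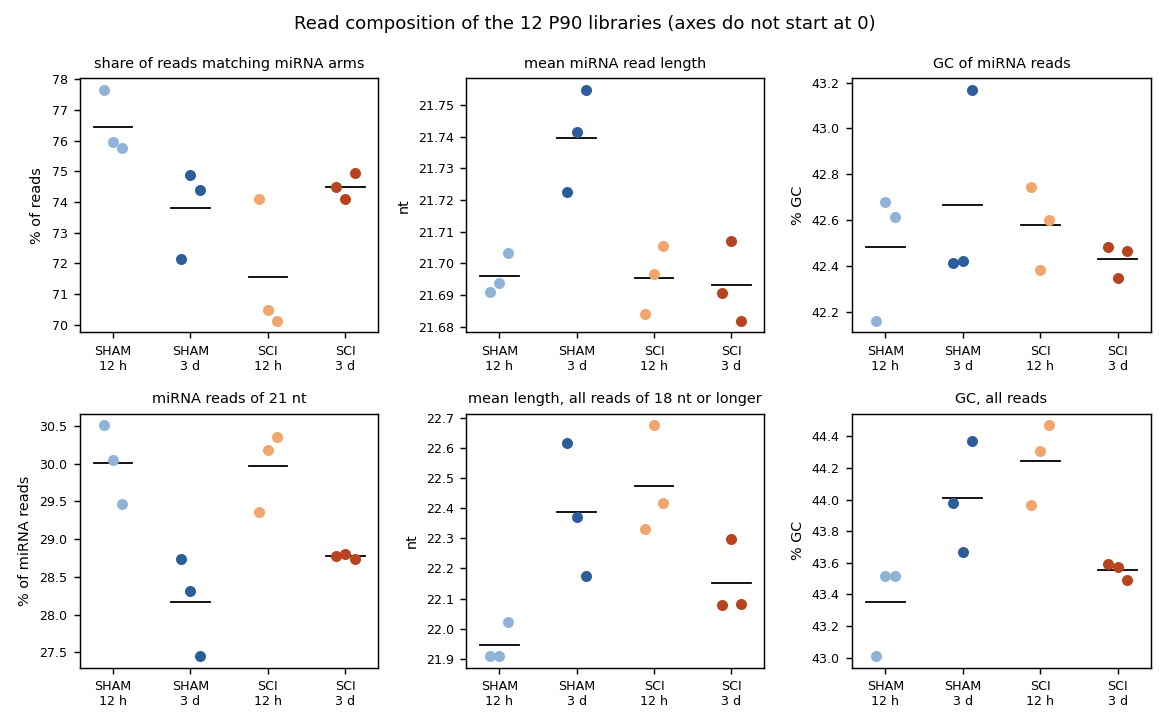
Read composition of the 12 P90 libraries, 1 point for each library and a line at each group mean (n = 3), with axes that do not start at 0. The mean length and GC content of miRNA reads overlap between SCI 12 h and SCI 3 days, whereas over all reads GC content falls from 44.0% or more to 43.6% or less in SCI mice and is higher at 3 days in SHAM mice.

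Each SCI library was left out in turn to see which of the 25 named miRNAs with an adjusted p under 0.05 still passed with fewer samples. All 25 kept their direction in each of the 6 fits. miR-3470a-3p, miR-3470b-3p, miR-1954-3p, miR-383-5p, miR-154-3p and miR-495-3p passed in all 6. Without SCI 3 days replicate 1 the other 19 were lost (edgeR adjusted p 0.0511 to 0.179) at log2 changes close to those with all libraries, such as 0.50 for let-7a-5p, 0.91 for miR-342-5p and -1.31 for miR-503-5p. Without SCI 3 days replicate 3 there were 13 lost (0.0555 to 0.165). Without SCI 3 days replicate 2 there were 10 lost (0.0674 to 0.131), among them miR-503-5p, miR-188-3p, let-7f-2-3p and miR-7a-5p. Without SCI 12 h replicate 2 there were 8 lost (0.0610 to 0.116), among them the same 4 miRNAs and miR-29c-3p, miR-451a-5p, miR-98-5p and miR-770-3p. Without SCI 12 h replicate 3 only let-7f-2-3p was lost (edgeR adjusted p = 0.0554), and without replicate 1 none was. A further 7 miRNAs outside the naming rule passed as well, 6 higher by 0.37 to 0.89 and 1 lower, miR-350-3p, by -0.71 on the log2 scale.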

How the data were processed

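Small RNA libraries made with HD adapters were sequenced from the cortex samples. The authors trimmed the adapters and the degenerate bases and deposited, for each library, the raw count of reads of every distinct sequence, without normalization. The submitters' processing notes name GRCm38.

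Reads 18 nt or longer were assigned to 1174 named hairpins of GENCODE M21 (GRCm38) when the whole read matched an arm on the sense strand, and summed per arm. RefSeq gave mature positions for 1007 hairpins; the others were divided at their midpoint. Arms with the same most abundant read were merged, which left 1692. A read matching several arms (0.168% of reads) was given to the arm with the most unique reads. The 6 SCI libraries were normalized together (TMM), arms averaging 5 normalized counts or more were kept, and p-values came from the edgeR 4.0.16 (R 4.3.3) quasi-likelihood fit and were adjusted after Benjamini and Hochberg. The study states a log2 limit of 1 in one place and of 0.5 in another; 1 was used here with an adjusted p under 0.05, and 0.5 as an alternative. Its own tool, DESeq2, was another alternative. The SHAM contrast was fitted in the same way, and the difference of the contrasts over the 12 P90 libraries. Shares and lengths per library were compared with exact permutation tests (scipy 1.17.1).

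Named were DE miRNAs without overlap between time points (up to 10 in each direction, filled up to 5 by smallest p), the 5 most abundant, those the study names, list members and any with a different change in SCI and SHAM. miR-709-3p, which the study names, was not tested. The members, lists and tests were chosen with earlier results of these data known. On simulated counts with 200 miRNAs changed by 2 on the log2 scale, 98.0% of those tested were recovered for the SCI contrast over 731 miRNAs. The simulated counts had a dispersion common to all miRNAs. Recovery of smaller changes, such as the 0.36 to 0.63 of the let-7 arms, was not simulated. No 2 libraries of a group agreed within sampling noise. Same-numbered samples had correlations of -0.13 to 0.13 across time points, against -0.27 to 0.29 for differently numbered samples. With 3 libraries in a group this gave no sign of pairing by number and cannot exclude it. The alternatives were other normalizations, filters, read sets and sample sets, a correction for GC, a replicate block and leaving out each library.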

Additional observations from a re-analysis of the deposited data

Results flagged for a closer look

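The change of miR-671-5p from 12 h to 3 days differed between SCI and SHAM cortex, by -1.24 on the log2 scale (SE 0.18, edgeR quasi-likelihood test, Benjamini-Hochberg adjusted p = 0.00772, 12 libraries). It was lower at 3 days in all 3 SCI libraries and higher in all 3 SHAM libraries. Over 13 other settings the adjusted p was under 0.05 in 11, with log2 differences of -1.81 to -0.80. The reads lie in an exon of Chpf2, and what sets the difference was not tested. No group of 4 or more libraries was available to look for single outlying samples.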

How the results depend on the processing

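The 7 DE miRNAs of the SCI contrast became 9 with DESeq2 and 24 without the filter on low counts. With only the most abundant sequence of each arm they became 12, and with all 24 libraries in one fit 2. They were 28 with the study's other log2 limit of 0.5 and 32 with unadjusted p, and 3 to 12 when single libraries were left out. The 32 miRNAs past the adjusted p became 81 with DESeq2, 88 without the filter, 50 with the GC correction, 19 with 12 libraries and 5 with 24, and 6 to 66 with a library left out: 66 without SCI 12 h replicate 1 and 6 without SCI 3 days replicate 1. The 7 let-7 arms became 3 with 12 libraries and 0 with 24, and 0 to 9 with a library left out. These last counts, of let-7 and of the adjusted p alone, were chosen after seeing the data. The 1 DE miRNA of the SHAM contrast became 9 with DESeq2, 20 without the filter, 0 with reads of 21 to 23 nt, 2 scaled by total reads or downsampled, 4 with 12 or 24 libraries, 23 with unadjusted p and 0 to 21 with a library left out (21 without SHAM 3 days replicate 2). The 1 miRNA whose change differed between SCI and SHAM became 22 without the filter, 0 with 21 to 23 nt or with 24 libraries, 31 with unadjusted p and 1 to 3 with a library left out. The cause of these shifts was not tested.

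With the replicate number as a block, 7 SCI miRNAs were DE, or 10 with the GC correction as well, and 7 let-7 arms passed. The SHAM count was 8 with the block and 2 with block and GC correction. Whether the numbers pair the samples is not settled here.

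The difference in reads of 21 to 23 nt, -0.27 percentage points among miRNA reads, was 2.81 over all reads and 0.0284 without the most abundant miRNA. With a library left out it was -0.52 to -0.083, the miRNA share 2.22 to 4.21, the GC content -0.24 to -0.059 and the mean length -0.0091 to 0.0034 nt. Among miRNAs that did not pass, the log2 change turned for miR-128-3p (0.046 by total reads, 0.000999 with the GC correction, 0.00085 with block and GC), miR-7b-3p (-0.047 with the most abundant sequence), miR-5126-3p (-0.011 with the most abundant sequence, -0.19 with GC, -0.13 with block and GC) and miR-668-3p (0.039 by total reads, 0.096 with the most abundant sequence). With a library left out the log2 change was -0.0069 to 0.11 for miR-9-5p, -0.0502 to 0.0309 for miR-128-3p, -0.19 to 0.45 for miR-5126-3p and -0.13 to 0.083 for miR-668-3p.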
